A study of Drosophila melanogaster with 3 samples.

Results

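The genes described here encode the juvenile hormone receptor of Drosophila and proteins that work with it. They are 5 of the 13945 protein-coding genes on the 6 major chromosome arms: Met, gce, tai, Hsp83 and Chd64. They were chosen by name, and each was examined over its annotated gene body and the 5 kb upstream of it. ChIP-seq, in which DNA bound by a protein is pulled down with an antibody and sequenced, had been done for Met in 1 group of 3 biological replicates, with no condition compared with another. The animals were whole white prepupae, both sexes pooled, of a Met-GFP strain that stably expresses Met fused at its C-terminus to green fluorescent protein, and the antibody was directed against that tag. Their age and whether they keep an untagged Met gene are not given in the labels, nor is the stretch of genome that the transgene carries.

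Juvenile hormone is a sesquiterpenoid that holds insect larvae in the juvenile state and falls away before metamorphosis. It binds the PAS domain of Met (Methoprene-tolerant), a bHLH-PAS transcription factor, which then pairs with the coactivator Taiman, the product of tai, and binds E-box-like DNA elements at target genes such as Kr-h1. The paralog Gce (germ cell-expressed) is a second receptor of the hormone in flies. Hsp83, the fly Hsp90 chaperone, helps to bring Met into the nucleus, and Chd64 is a calponin-like protein found in complexes with Met on juvenile hormone response elements.

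Met peaks lay in 4 of the 5 genes and were not listed at Met itself. These were gce, tai, Hsp83 and Chd64, counted in the authors' list thresholded by the irreproducible discovery rate (IDR). Over all protein-coding genes the share with an IDR peak in the body or 5 kb upstream was 37.6% (5243 genes). The same 4 genes had a peak among the pooled relaxed peaks, a list of 30000 that reaches far weaker signal, against 57.7% of all genes. The IDR list held 8513 peaks, which are the 8513 pooled peaks of highest signal. Replicate lists were therefore read to their 8513 strongest peaks, and in each of the 3 it was again 4 of the 5 genes that held a peak.

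The 4 genes held 22 IDR peaks in all, with 14 at tai, 5 at gce, 2 at Hsp83 and 1 at Chd64. Another 47 peaks of the pooled relaxed list lay below the IDR threshold, 30 at tai, 11 at gce, 6 at Chd64 and 0 at Hsp83. Long genes have more room for peaks, so each gene was also read against the protein-coding genes of 0.5 to 2 times its length. Among these, an IDR peak was present in 74.9% for the length of tai, 67.9% for gce, 51.1% for Chd64, 42.8% for Met and 38.9% for Hsp83. That gce, tai and Chd64 held a peak at all is thus common for genes of their size. The lists give no number of reads, so sequencing depth is unknown and no counting error can be set on a single peak.

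**Figure D1:**
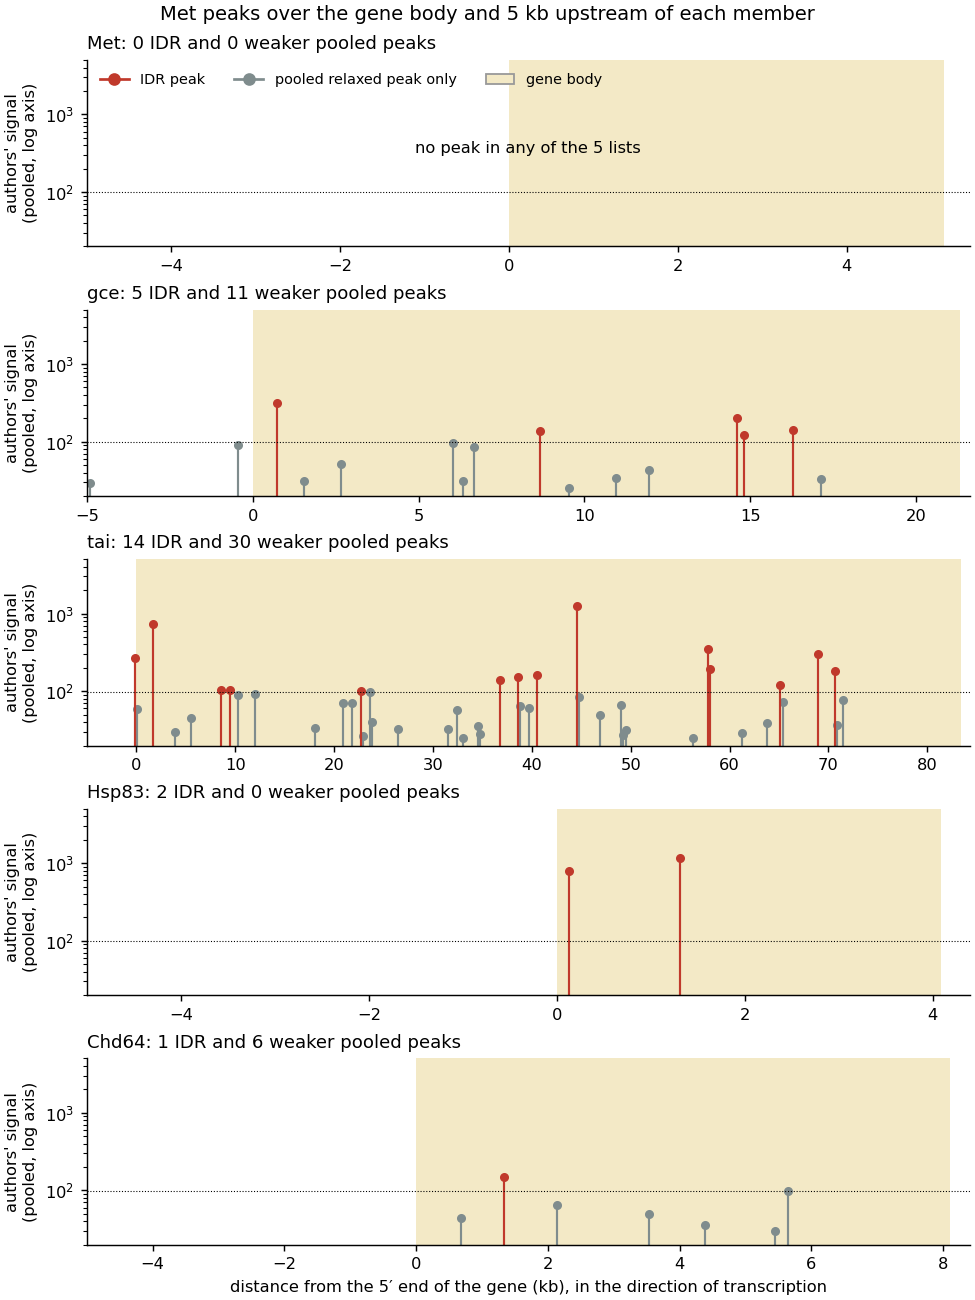
Each panel shows 1 gene, with distance from its 5′ end in kb on the x axis (5 kb upstream to the end of the gene) and the authors' signal in the pooled list on a log y axis. Red stems are IDR peaks, grey stems are pooled relaxed peaks below the IDR threshold (dotted line at 98.7) and the shaded band is the gene body. Met is empty, Hsp83 has 2 IDR peaks of high signal and nothing weaker, and tai has 44 peaks along most of its length.

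Met, the gene of the receptor itself, lies on X from 11616124 to 11621280 on the plus strand (dm6; 5157 bp, 1 transcription start site, TSS). Its body and the 5 kb upstream held 0 peaks in the IDR list, 0 in the pooled relaxed list and 0 in the whole relaxed list of each of replicates 1, 2 and 3. Among genes of similar length, 59.7% had a pooled relaxed peak, so a gene of this size without one is not rare. The 10 kb window of X that holds the Met TSS (11610001 to 11620000) was likewise empty in the pooled list, as were 33.5% of all such windows of X. A position missing from these lists shows only that no peak was called there against the authors' control.

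The empty stretch was wider than the gene. The nearest pooled summits lay at 11600376, in an intron of the rhomboid family gene rho-4, and at 11623094, in an intron of the receptor tyrosine phosphatase gene Ptp10D. They were 22.7 kb apart, and 3.38% of all 29994 gaps between neighbouring pooled summits were at least as long. Each gap counts once there, whatever its length. Long gaps cover more of the arms, so a given gene lies in one more often than this share tells. The replicate lists gave gaps of 22.7, 22.7 and 22.8 kb around Met in replicates 1, 2 and 3. All 3 replicates thus ended the gap at nearly the same positions.

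The peak on the far side of the gap was one of the strongest in the data. It spans 11622863 to 11623371 with its summit 1814 bp beyond the 3′ end of Met, 6970 bp from the Met TSS and 1079 bp downstream of the nearest TSS, that of Ptp10D. Its signal was 3423 in the pooled list (rank 14), and 1135, 1242 and 1036 in the lists of replicates 1, 2 and 3 (ranks 19, 15 and 17). It was close to the top of every list. The sequence around its summit is shown because it is the strong peak nearest to Met. It comes from the RefSeq Release 6 assembly (dm6, plus strand), as do all the sequences below, each 131 bp long, and capitals mark matches to the motifs searched (GAGAG excepted), here the heat shock element core TTCNNGAA.
Ptp10D intron, chrX:11623029-11623159: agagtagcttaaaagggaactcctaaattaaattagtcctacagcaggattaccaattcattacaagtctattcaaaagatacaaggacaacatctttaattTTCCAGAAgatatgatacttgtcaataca
A match to TTCNNGAA, a palindrome that reads the same on both strands, was present in 3.59% of windows of this length around all IDR summits. Neither the palindromic E-box CACGTG nor the C-box CACGCG, the elements bound by bHLH-PAS dimers of this kind, is in this window.

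Signal within 50 kb of Met was one-sided. Within 50 kb of the gene the pooled list held 1 peak upstream, 0 in the body and 17 downstream, and those 17 all lay in Ptp10D. Of these, 12 were in the IDR list, and 0 IDR peaks lay within 50 kb upstream. Of the 18 genes that reach into these 50 kb, Ptp10D alone held an IDR peak in its body. Ptp10D spans 11622015 to 11677338 on the plus strand and is thus the gene next to Met on its 3′ side. Within 100 kb the pooled list held 29 peaks upstream and 23 downstream, and the IDR list 8 and 18. The one-sidedness thus depends on the distance chosen, and its share among other genes was not taken.

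Read within the pooled list, the peaks within 50 kb of Met were strong rather than numerous. Their median percentile of signal within the list was 82.5 in the pooled list, and 78.7, 75.1 and 75.0 in replicates 1, 2 and 3 (76.3 ± 2.11, SD, n = 3). Of the 2159 protein-coding genes on X with at least 5 pooled peaks within 50 kb, 2.22% had a median as high as that of Met, and the middle gene had 56.2. Peaks were spaced at 1.71 per 10 kb around Met, against a median of 2.31 around the genes of X, where 68.7% of genes had at least as many. The same measure over the other members gave 91.2 around Hsp83 (15 peaks), 53.6 around tai (68), 48.6 around gce (25) and 47.3 around Chd64 (36). In the pooled list a high median percentile was thus seen around Hsp83 as well as around Met. Within the IDR list, where all peaks are strong, the order was different. The 12 IDR peaks within 50 kb of Met had a median percentile of 55.2 in that list. It was 88.9 around Hsp83 (11 peaks), 64.5 around Chd64 (9), 46.3 around tai (17) and 35.2 around gce (8).

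Upstream of Met the replicates differed. Replicates 2 and 3 listed a peak in front of CG11695 and e(y)2 (summits 11576765 and 11576766, ranks 3585 and 3639) and another at the 3′ end of lncRNA:roX2, in front of nod (11580464 and 11580402, ranks 3244 and 3187). roX2 is a noncoding RNA of the dosage compensation complex and nod a kinesin-like gene. Neither position was in the list of replicate 1 or in the pooled list. Whether extra copies of this region, brought by the transgene, bear on the gap or on the signal beside it was not tested, since the labels do not give the ends of the insert and the control's reads were not analysed here.

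**Figure D2:**
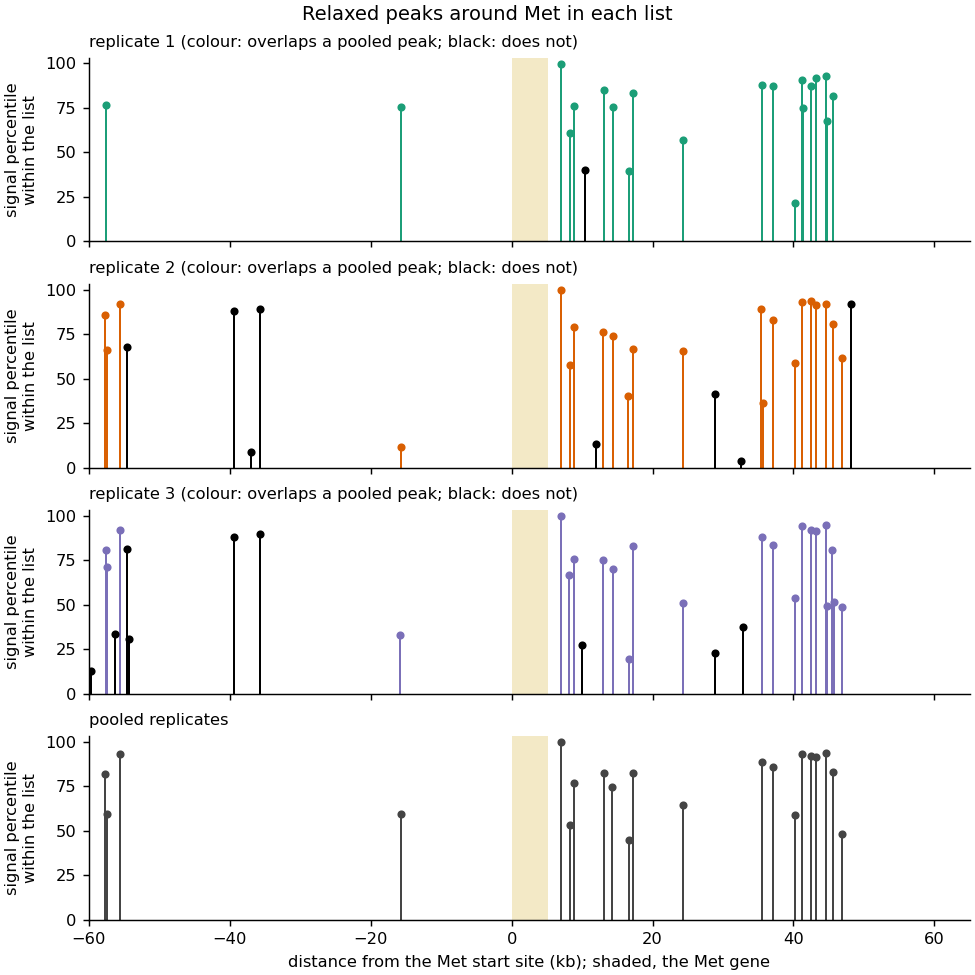
Relaxed peaks by distance from the Met TSS (x axis, kb) and percentile of signal within their own list (y axis), with 1 panel for each replicate and 1 for the pooled list. The shaded band is the Met gene, coloured stems overlap a pooled peak and black stems do not. All 4 lists are empty from the rho-4 peak upstream to the one just beyond the gene, and the black stems between 35 and 40 kb upstream stand in replicates 2 and 3 only.

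gce, the paralog and a second receptor gene, held 5 IDR peaks and 16 pooled relaxed peaks. It lies on X from 15297766 to 15319074 on the plus strand (21.3 kb, 3 TSSs). The strongest 8513 peaks of replicates 1, 2 and 3 gave 6, 5 and 5 peaks (5.33 ± 0.577, SD, n = 3). At least 5 IDR peaks were found in 3.67% of all protein-coding genes and in 17.7% of genes of similar length, whose median was 1. All 5 of its IDR peaks were overlapped by strong peaks of all 3 replicates.

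The strongest gce peak was near its start sites. Its summit at 15298513 lay in an intron, 496 bp upstream of the middle TSS of gce and 296 bp upstream of the TSS of the antisense gene asRNA:CR44429. The signal was 319 in the pooled list (rank 2356) and 126, 110 and 88.6 in replicates 1, 2 and 3. A peak this strong or stronger was found at 18.3% of all protein-coding genes and at 36.1% of genes as long as gce. Its sequence is shown as the start-site peak of the paralog, and it holds no capitals because none of the motifs matched.
gce strongest, chrX:15298448-15298578: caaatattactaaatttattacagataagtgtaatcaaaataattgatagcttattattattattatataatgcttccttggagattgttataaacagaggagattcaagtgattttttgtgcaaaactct
G+C made up 23.7% of these 131 bases.

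The other 4 gce peaks lay deeper in the gene. The next in strength had its summit at 15312371 in an intron, 11862 bp downstream of the last TSS (signal 203, rank 4059, and ranks 4260, 4144 and 4899 in replicates 1, 2 and 3). A neighbouring summit at 15312572 (signal 123, rank 6897) was called separately in the pooled list and in replicate 3, while in replicates 1 and 2 one peak overlapped both. The remaining summits were at 15306428 in a 5′ UTR exon (signal 138, rank 6140) and at 15314059 in an intron (signal 140, rank 6044). The second-strongest peak is shown for its 2 copies of the DNA replication-related element TATCGATA, a palindrome bound by the promoter factor DREF, and for CACGC, the bHLH-PAS core GCGTG on the minus strand.
gce second, chrX:15312306-15312436: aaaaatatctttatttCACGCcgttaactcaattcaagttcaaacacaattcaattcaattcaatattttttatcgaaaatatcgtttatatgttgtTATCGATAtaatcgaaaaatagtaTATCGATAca
Windows of this length around all IDR summits held TATCGATA in 0.975% of cases and GCGTG, on either strand, in 9.30%. The 11 weaker pooled peaks of gce had signals of 25.3 to 97.3. The strongest of these, in an intron 3296 bp downstream of the last TSS, was just under the lowest IDR signal of 98.7.

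tai, the gene of the coactivator that pairs with Met, held the most peaks of the 5 genes. It lies on 2L from 9166778 to 9250211 on the plus strand (83.4 kb, TSSs at 9166778 and 9176358). It had 14 IDR and 44 pooled relaxed peaks, and the strongest 8513 peaks of replicates 1, 2 and 3 gave 8, 16 and 16 (13.3 ± 4.62, SD, n = 3). Only 50 protein-coding genes (0.359%) had at least 14 IDR peaks, and of the genes of similar length 10.5% did, with a median of 3. Replicate 1 held fewer of its peaks among its strongest than the other two replicates. Strong peaks of all 3 replicates overlapped 8 of the 14, and for the other 6 the strongest peaks of replicate 1 held no overlap. Of these 6, 3 (summits 9175363, 9189495 and 9203538) were overlapped by the strongest peaks of only 1 replicate.

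Among the strongest IDR peaks of tai, a pair stood above the rest. The first had its summit at 9211394, in an intron 35036 bp downstream of the second TSS, with a signal of 1261 in the pooled list (rank 216) and of 471, 412 and 371 in replicates 1, 2 and 3 (ranks 190, 245 and 245). The other had its summit at 9168484, in an intron 1706 bp downstream of the first TSS, with a signal of 743 in the pooled list (rank 642) and of 264, 254 and 224 in replicates 1, 2 and 3. Both were in nearly the same place in the order of all 4 lists. A peak at least as strong as the first was found at 2.74% of all protein-coding genes and at 9.25% of genes as long as tai. It is shown as the leading tai site, and none of the motifs matched it.
tai strongest, chr2L:9211329-9211459: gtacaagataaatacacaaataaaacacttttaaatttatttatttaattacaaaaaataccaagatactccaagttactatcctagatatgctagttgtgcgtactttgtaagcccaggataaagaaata

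A peak also sat at the tai promoter. Its summit at 9166684 was intergenic and 94 bp upstream of the first TSS, with a signal of 268 in the pooled list (rank 2914) and of 97.8, 69.0 and 102 in replicates 1, 2 and 3. The window, shown because it is the only IDR summit among the members in intergenic sequence, holds the E-box CACCTG on the plus strand, which 2.97% of such windows around all IDR summits hold on either strand.
tai promoter, chr2L:9166619-9166749: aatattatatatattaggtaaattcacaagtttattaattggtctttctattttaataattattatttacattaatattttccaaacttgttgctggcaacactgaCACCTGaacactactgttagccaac
The second TSS had a weak IDR peak 131 bp upstream of it, with a summit at 9176227, a signal of 104 and rank 8123.

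Further into tai, IDR peaks flanked a tRNA gene that lies inside it. Summits at 9235670 (signal 306, rank 2488) and 9237417 (signal 182, rank 4571) lay 924 bp downstream and 823 bp upstream of the TSS of tRNA:Thr-AGT-1-1. Another pair of neighbouring summits was at 9224583 (signal 351, rank 2069) and 9224786 (signal 192, rank 4311). The peak at 9237417 had signals of 52.2, 51.2 and 81.6 in replicates 1, 2 and 3 and is shown because it is the only one of the 22 where CACGTG or CACGCG lies no more than 50 bp from the summit. Over the whole IDR list 2.18% of peaks had either element there. The C-box CACGCG, in capitals, spans 9237369 to 9237374 and starts 48 bp before the summit.
tai near C-box, chr2L:9237352-9237482: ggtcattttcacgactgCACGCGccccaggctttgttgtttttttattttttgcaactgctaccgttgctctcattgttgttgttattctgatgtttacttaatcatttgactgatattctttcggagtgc
The 30 weaker pooled peaks of tai had signals of 25.3 to 98.3. The lowest of these had a −log10 q-value of 0.237, so relaxed peaks include positions whose q-value passes no usual threshold.

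**Figure D3:**
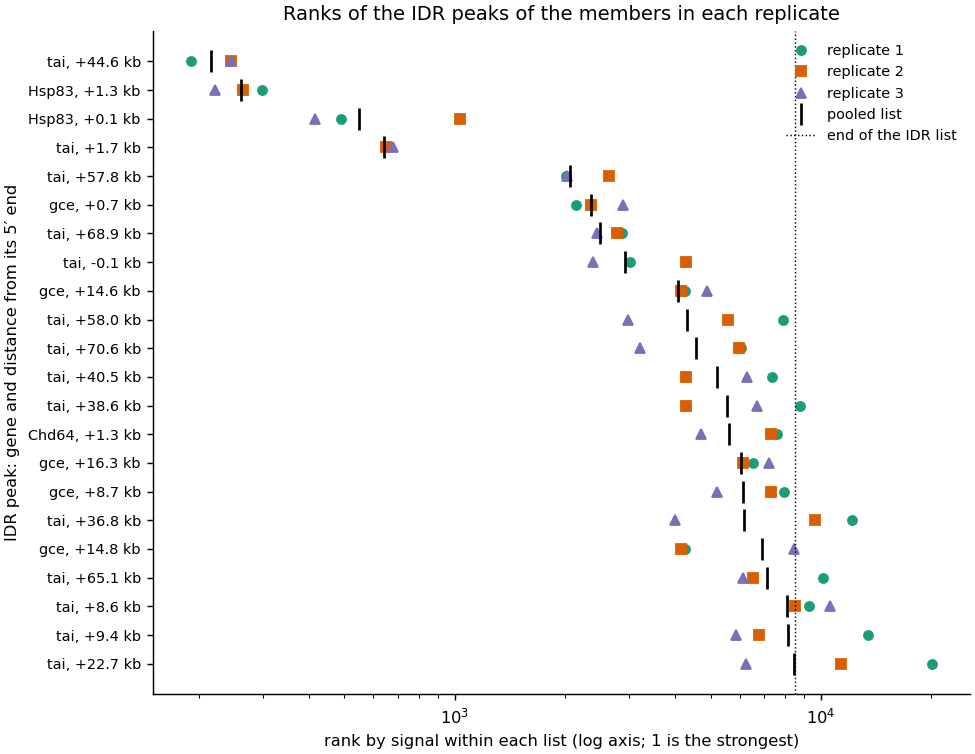
The 22 IDR peaks of the members, ordered by strength in the pooled list from top to bottom and named by gene and distance from its 5′ end, against their rank in each list (log x axis, 1 is the strongest). Circles, squares and triangles are replicates 1, 2 and 3, black bars are the pooled list, and the dotted line is the end of the IDR list at 8513. Of the 4 strongest peaks, 3 hold nearly the same rank in all lists while Hsp83 at +0.1 kb is lower in replicate 2, and the points beyond the line all belong to tai.

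Hsp83, the Hsp90 chaperone gene, held few peaks of high signal. It lies on 3L from 3192969 to 3197059 on the plus strand (4091 bp, TSSs at 3192969 and 3193216), and its 2 IDR peaks were also its only pooled and replicate peaks. At least 2 IDR peaks were found in 19.1% of all protein-coding genes and in 17.99% of genes of similar length. The stronger peak had its summit at 3194275, in an intron 1059 bp downstream of the second TSS. Its signal was 1164 in the pooled list (rank 261) and 391, 398 and 387 in replicates 1, 2 and 3 (ranks 297, 265 and 222), so the replicates nearly coincided. A peak of this strength was found at 3.23% of all protein-coding genes and at 3.13% of genes as long as Hsp83. None of the motifs matched the window, which is shown as the strongest peak of the shorter members.
Hsp83 intron, chr3L:3194210-3194340: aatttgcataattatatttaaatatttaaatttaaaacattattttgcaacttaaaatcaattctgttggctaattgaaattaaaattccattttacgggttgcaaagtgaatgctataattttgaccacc
It is rich in A and T, with 22.9% G+C.

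The other Hsp83 peak lay between its start sites. The summit at 3193096 was 127 bp into the gene, in the 5′ UTR of the longer transcript, and 120 bp upstream of the second TSS. Its signal was 802 in the pooled list (rank 548) and 303, 192 and 294 in replicates 1, 2 and 3 (ranks 488, 1034 and 415), lower in replicate 2 than in the other two replicates. Heat shock factor regulates Hsp83 through heat shock elements, and a match to the core GAANNTTC, a palindrome, lay at 3193148 to 3193155, starting 52 bp after the summit. Such a match was present within 65 bp of 4.04% of all IDR summits. The summit window held 50.5% G+C, against a median of 31.7% over all IDR summits.

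Chd64, the calponin-like gene, had a single IDR peak. It lies on 3L from 4114289 to 4122388 on the minus strand (8.1 kb, TSSs at 4122388 and 4115752). The summit at 4121053 was in an intron, 1335 bp downstream of the upstream TSS. Its signal was 150 in the pooled list (rank 5616) and 41.9, 42.5 and 59.7 in replicates 1, 2 and 3 (ranks 7564, 7310 and 4690). In replicate 2 another peak, with signal 52.8 and rank 5758, overlaps the IDR peak as well. Chd64 had the weakest best peak of the 4 genes, and 31.1% of all protein-coding genes had one at least as strong. The window holds the AP-1 site TGACTCA on the plus strand, found in 1.12% of such windows around all IDR summits on either strand.
Chd64 intron, chr3L:4120988-4121118: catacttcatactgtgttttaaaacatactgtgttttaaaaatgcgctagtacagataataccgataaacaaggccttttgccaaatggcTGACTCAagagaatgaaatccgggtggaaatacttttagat
Its 6 weaker pooled peaks had signals of 29.7 to 96.9, and the strongest of them lay 993 bp upstream of the downstream TSS.

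The Chd64 promoter had a peak in every replicate that the pooled list does not contain. Summits at 4122445, 4122444 and 4122416 in replicates 1, 2 and 3 lay 57, 56 and 28 bp upstream of the TSS. Their signals were 42.8, 108 and 72.6, at ranks 7402, 2439 and 3668, all within the strongest 8513 of their lists. In all 3 replicates the promoter peak ranked above the peaks that overlap the intron peak, by a narrow margin in replicate 1. No pooled relaxed peak overlapped any part of the peak in replicate 3. Of the 6350 peaks of replicate 3 that recurred among the strongest of replicates 1 and 2, 71 (1.12%) had no pooled peak, and this was the only one of the 71 in the regions of the 5 genes. Among the 71, 63.4% had their summit within 500 bp of a TSS, against 33.4% of the other recurring peaks. The 131 bp just upstream of the TSS are shown (plus strand, so that the gene begins to the left of the first base), with the E-box CAGCTG in capitals, starting 94 bp from the summit of replicate 3.
Chd64 promoter, chr3L:4122389-4122519: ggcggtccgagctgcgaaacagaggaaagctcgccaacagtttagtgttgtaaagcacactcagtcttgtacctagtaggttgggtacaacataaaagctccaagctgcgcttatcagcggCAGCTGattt

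**Figure D4:**
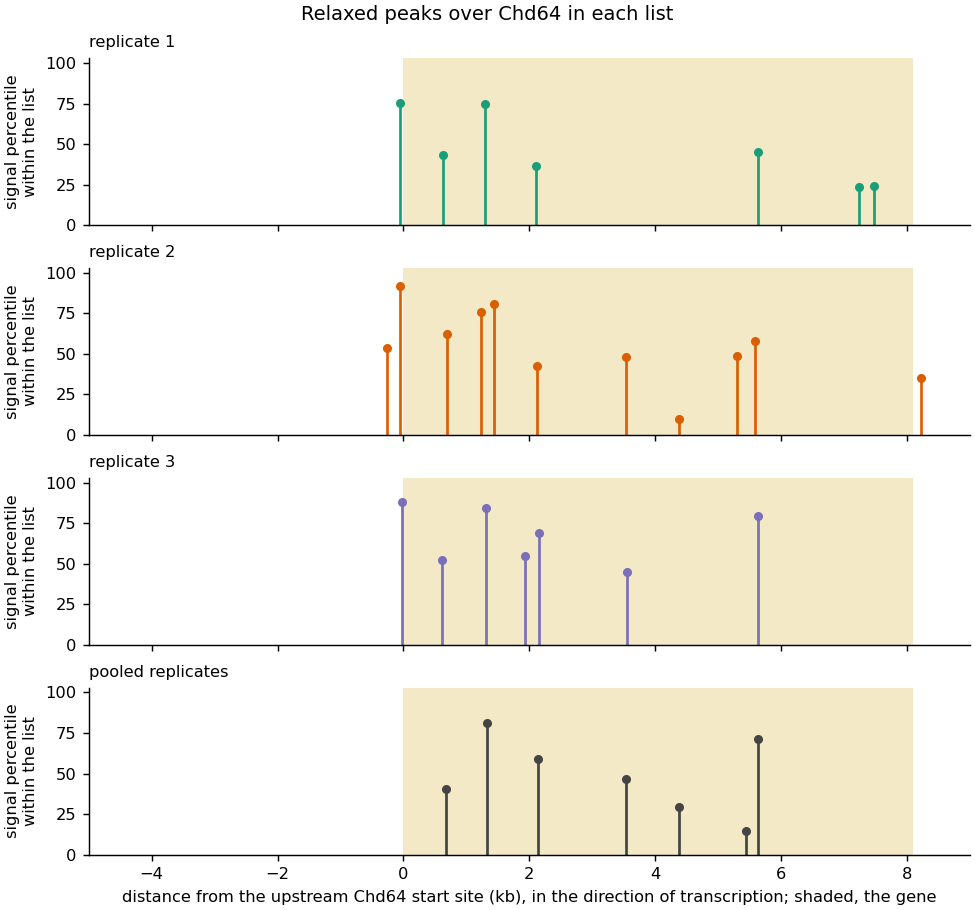
Relaxed peaks over Chd64 by distance from its upstream TSS in the direction of transcription (x axis, kb) and percentile of signal within their own list (y axis), with 1 panel for each replicate and 1 for the pooled list. The shaded band is the gene. A stem stands at the TSS in all 3 replicates and is missing from the pooled panel, while the stem of the IDR peak near 1.3 kb is in all 4.

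The 22 IDR peaks of the 4 genes lay mostly in introns. Of their summits 19 were in an intron and in no exon (86.4%), 2 in a 5′ UTR, 1 in intergenic sequence and 0 in coding sequence. Over all IDR peaks 55.0% of summits were intronic, 6.27% in a 5′ UTR, 34.3% intergenic and 0.458% in coding sequence. The regions here were cut to a gene body and a short upstream stretch, so a lower intergenic share follows from the choice. Summits within 1 kb of a start site of the same gene numbered 5, at gce (1), tai (3) and Hsp83 (1). Thus 3 of the 5 genes had one, against 22.2% of all protein-coding genes. These 3 genes have 3, 2 and 2 start sites, and no share matched for that number was taken. The Chd64 promoter peak is not in the IDR list and is not counted here.

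In recurrence the members' peaks were much like the list they come from. In strength they were somewhat more often among its 851 strongest and among its 4257 weakest peaks, though the counts are small. Of the 22, 4 were among the 851 strongest peaks of the IDR list (18.2%, against 9.996% by construction), at tai and Hsp83. Peaks overlapped among the strongest of all 3 replicates numbered 16 of 22 (72.7%, against 73.6% of all IDR peaks). All 9 of the members' peaks among the stronger 4256 recurred in this way (98.2% of all IDR peaks of that strength), and 7 of the 13 weaker ones did (48.9%). Which strong peaks recurred was not independent of the list, since the list was made from these replicates.

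Most of these summits had none of the elements expected of a bHLH-PAS protein nearby, as is the case over the whole IDR list. Within 50 bp of the 22 summits CACGTG matched 0, CACGCG 1, the core GCGTG 4 and CACCTG 1, with CAGCTG and CATATG at 0. GCGTG is contained in the C-box, so 1 of the 4 is the same site. The shares over all IDR peaks were 0.787%, 1.42%, 7.02%, 2.36%, 2.90% and 3.88%. The GAGA element GAGAG matched 7 of the 22 summits, against 10.3% of all. Either heat shock core matched 1 (5.65% of all), AP-1 1 (0.846%), the DNA replication-related element 1 (0.728%) and the nuclear receptor element AGGTCA 0 (1.93%). Matches were counted on both strands and describe letters, not binding sites. The median G+C content at the members' summits was 35.1%, with a range of 16.8% to 60.4%, against 31.7% over all IDR summits (quartiles 26.7% and 38.6%).

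Other genes of the pathway were read by the same rule. Of 9 genes whose products bind Met or act with it, 7 held an IDR peak (77.8%, against 37.6% of all protein-coding genes). They include long genes such as EcR (81.2 kb) and ftz-f1 (50.7 kb), and among genes of the length of tai 74.9% held one. Those with a peak were nej, the CBP acetyltransferase (2 peaks, best rank 531), Nup358, a nucleoporin (2, best rank 278), usp and EcR, the ecdysone receptor subunits (3 and 14, best ranks 2038 and 2459), the nuclear receptor gene ftz-f1 (6, best rank 1603), the clock gene cyc (1, rank 1973) and SmydA-8 (1, rank 7481). The best peaks of Nup358 and cyc were nearest to the start sites of CG11857 and Fibp, neighbours of these genes. That of nej, in intergenic sequence, was nearest to the start site of lncRNA:CR42657. Those of EcR and ftz-f1 lay in introns of these genes, nearest to the start sites of tRNA:Asn-GTT-1-1 and lncRNA:CR45938. Fkbp39, whose product acts with Chd64, and Clk held 0 in either the IDR or the pooled list.

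Some of the chaperone partners of Hsp83 held a peak as well. Of 7 Hsp90 cochaperone and heat shock genes found in the annotation, 2 held an IDR peak (28.6%, against 37.6% of all protein-coding genes and 38.9% of those of the length of Hsp83). They were Hsc70-4 (rank 5030, 390 bp downstream of its TSS) and Droj2 (rank 4831, nearest to the TSS of mRpS21). Stip1, Cdc37, p23, Fkbp59 and Hsf, the heat shock factor gene, held 0 IDR and 0 pooled peaks. The first 4 of these are shorter than Hsp83 (1.73 to 2.33 kb), and 7 genes are too few to rank against the shares above. Of 3 target genes, Kr-h1 held 7 IDR peaks with the strongest of the whole list, br (89.7 kb) held 9 and the juvenile hormone esterase gene Jhe held 0, so 2 of 3 had a peak, a number too small to set against the 37.6% of all genes. The signal at the best peak of Kr-h1 was 13961, against 1261 at tai, 1164 at Hsp83, 319 at gce and 150 at Chd64.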

How the data were processed

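Per the labels, sheared chromatin of 3 white prepupa biosamples was immunoprecipitated with an antibody to GFP. Per the text listings deposited with the libraries, each replicate and the pool of all 3 got a relaxed peak list against 1 shared control, with an IDR list derived from them. Aligner and caller: not given in the sources used here. Each of the authors' lists holds a signal per peak, used only within a list, and the deposited −log10 q-value of each peak. Lists in dm3 coordinates were not used here.

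Peaks overlapping a gene body or the 5 kb upstream by at least 1 bp were counted in dm6 with Python 3.11.15, pandas 2.3.3 and numpy 2.4.6. Genes came from Ensembl release 115 (BDGP6.54) and sequence from RefSeq Release 6. Coordinates are 1-based. Percentiles are ranks of signal within a list, and 12 motifs were searched on both strands. Counting was tested on simulated data: 200 of 200 planted genes were recovered. No test was made, since there is 1 group. Values stand beside those of all 13945 genes instead.

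The members, gene lists and motifs were chosen with earlier results of these data known. Named were all IDR peaks of gce, Hsp83 and Chd64. For tai, those named were the 6 of highest signal and any with CACGTG or CACGCG at most 50 bp from the summit, and the weak peak at its second TSS was added after its values were seen. Alternatives were other upstream distances, a summit rule, single replicates, left-out replicates, other overlap rules, wider motif windows and other distances around Met.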

Additional observations from a re-analysis of the deposited data

How the results depend on the processing

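Met held 0 peaks in its region under every alternative run. These were 2 or 10 kb upstream, the summit rule, each replicate alone, any replicate left out and the recurring peaks alone. None of them could have given a peak. The full lists were already empty there, and the nearest pooled summit upstream lay 15.7 kb from the gene. Of 97 alternative values, 79 stayed within 1.5 times the value reported or, for the Met percentile, within its replicate SD. The zeros of Met are among these 79. The other 18 values did not stay within these limits. With the stronger 4256 IDR peaks the counts were 2 at gce, 5 at tai and 0 at Chd64. The strongest peaks of replicate 1 gave 8 at tai, and those of replicates 1, 2 and 3 gave 2, 3 and 3 at Chd64. Leaving out a replicate meant keeping the IDR peaks that the strongest peaks of both other replicates overlapped. No list was remade, so such a count can only fall, and it was 8 to 11 at tai. Peaks recurring in all 3 replicates without use of the pooled list, an alternative chosen after seeing the data, gave 2 at Chd64. The median percentile around Met was 74.5 within 20 kb and 70.6 within 100 kb. It was 78.7, 75.1 and 75.0 in replicates 1, 2 and 3. With a replicate left out, the mean of the remaining replicates' medians was 75.1 to 76.9. The cause of these differences was not tested. No paired analysis was possible because there is 1 group. The unknown depth limits every statement on a missing peak.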

Other observations

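Among the peaks near Met that the pooled list lacks, 1 more was strong. Replicate 2 listed a peak in the Ptp10D intron with its summit at 11664284, 48.2 kb from the Met TSS (signal 108, rank 2413), that neither replicate 1 nor replicate 3 nor the pooled list holds within 50 kb of Met.

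Peaks listed in 1 replicate and not in the pooled list were otherwise weak at the members. At tai there were 7, 10 and 3 in replicates 1, 2 and 3, the best at rank 14266 of 30000, and at gce 1, 1 and 2, the best at rank 16930. At Chd64, apart from the promoter peak found in every replicate, there were 2, 2 and 0, the best at rank 13988 in replicate 2, with its summit at 4122653. In replicate 2, 4 of those at tai lay in its 3′ UTR.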
